A study of Mus musculus with 12 samples.

Results

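This account follows 10 genes of hyaluronan synthesis, binding and breakdown in the mouse heart after sham surgery and after acute myocardial infarction (AMI). The genes were chosen by symbol from what their products are known to do, out of 53801 genes, and with earlier results of these data known. Each was compared between sham hearts and hearts on day 1 and day 7 after AMI. *Has1*, *Has2* and *Has3* encode the enzymes that make hyaluronan. *Hyal1* and *Hyal2* encode hyaluronidases, *Cd44* and *Lyve1* encode receptors, and *Vcan*, *Tnfaip6* and *Hapln1* encode proteins that bind hyaluronan in the matrix. All 10 passed the filter on low counts, as did 15306 genes in all.

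Hyaluronan is a long, unbranched sugar polymer that the synthases extrude through the plasma membrane. In the matrix it holds water and is decorated by proteoglycans such as versican. Cells grip it with CD44, lymphatic vessels and some resident macrophages carry LYVE-1, and the protein TSG-6 (*Tnfaip6*) transfers heavy chains of inter-alpha-inhibitor onto it. Hyaluronidases and cell surface enzymes cut it into fragments, which lysosomes then degrade.

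RNA came from whole hearts of C57BL/6N mice, for which the labels give no genetic alteration, with 4 hearts per group and 1 library per heart. Day 1 AMI and day 7 AMI hearts had a permanent ligation of the left coronary artery. The study's methods describe operations on adult male mice in general, and the day on which sham hearts were taken is not given in the sources used here. A whole heart holds infarct, border and remote muscle together, and in such tissue fewer cells of a type and less RNA per cell cannot be told apart. Libraries held 23204551 to 32166517 counts, and 3 counts, taken as the floor, equalled 0.0895 to 0.156 CPM (counts scaled to a common library total). The 6 cardiomyocyte markers summed to 60900 to 73300 CPM in sham hearts, 38000 to 48200 in day 1 AMI hearts and 34500 to 38800 in day 7 AMI hearts. *Myh6* was the largest part of this sum, with means of 36100, 19700 and 15700 CPM in the same order. *Actc1* differed least between the groups in CPM, with 11200, 10400 and 9910. In TPM, which allows for transcript length, *Actc1* had means of 10000, 11600 and 13100 and *Myh6* had 12000, 8420 and 9030.

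Levels of 1 gene are given as CPM after TMM normalization, and levels of different genes are compared in TPM, which allows for transcript length. A gene is called where its fold change (FC) reached 2 in either direction and edgeR's quasi-likelihood test, adjusted over all genes tested, put its false discovery rate (FDR) below 0.05. A log2 FC is followed by its standard error (SE). With library totals in place of TMM, the median log2 FC of all tested genes moved from -0.01 to 0.26 between day 1 AMI and sham hearts, from 0.02 to 0.15 between day 7 and day 1, and from 0.03 to 0.43 between day 7 AMI and sham hearts. Changes are therefore relative to the bulk of the transcriptome.

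On day 1, 4 of the 10 genes were called higher than in sham hearts, namely *Has1*, *Has2*, *Cd44* and *Vcan*, against 7.79% of all tested genes. None was called lower, against 2.98%. Between day 1 and day 7, none was called higher, against 8.55%, and *Has1* alone was called lower, against 2.69%. On day 7, 4 of the 10 were called higher than in sham hearts, namely *Has2*, *Cd44*, *Vcan* and *Tnfaip6*, against 15.3%, and none was called lower, against 5.88%. The median log2 FC of the 10 genes was 0.66 for day 1 AMI against sham, -0.04 for day 7 against day 1, and 0.47 for day 7 AMI against sham. The comparisons share hearts, so the counts are not independent of each other. Since the genes were chosen with earlier results of these data known, the shares of all genes are a background and not a test.

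**Figure D1:**
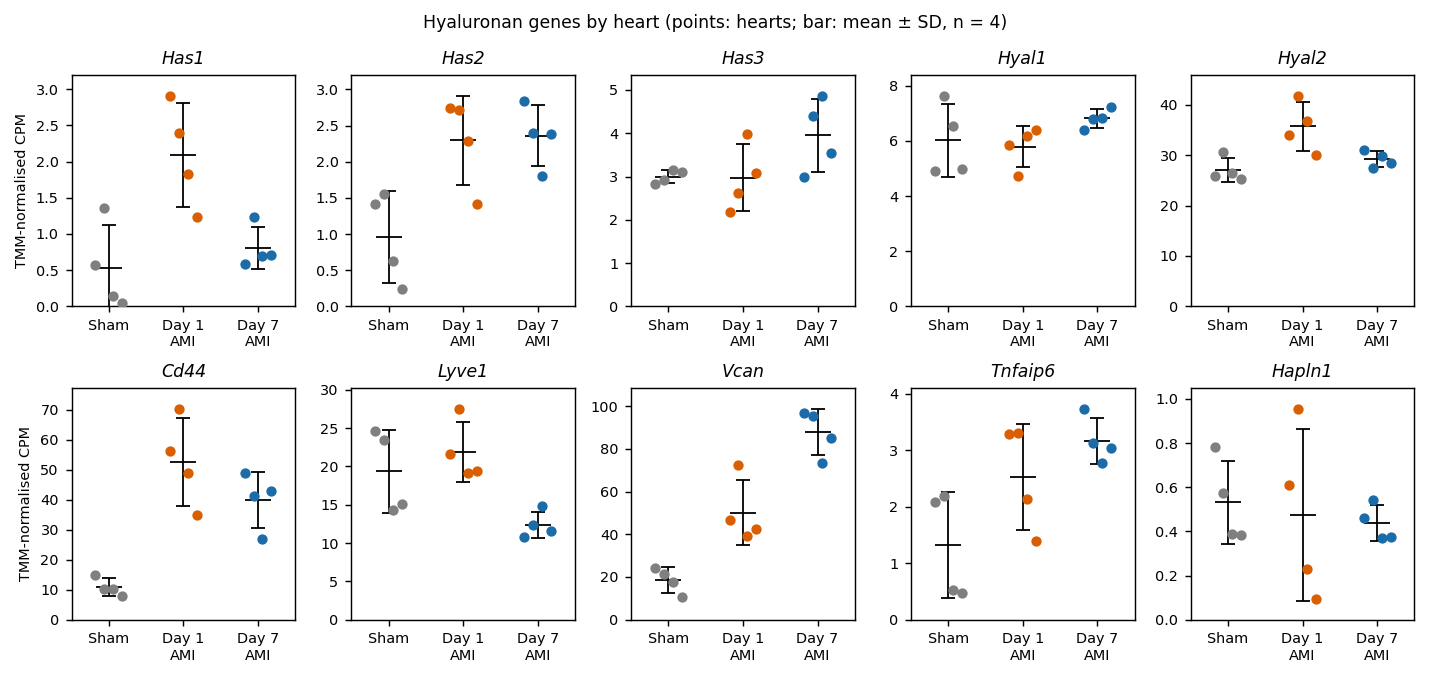
TMM-normalised CPM (linear axis from 0) of the 10 genes in each heart, with points for hearts and bars for the mean ± SD of 4 hearts; the lower bar of *Has1* in sham hearts runs below 0 and ends at the axis. *Cd44* and *Vcan* in every AMI heart lay above every sham heart, *Has1* was highest on day 1, and *Lyve1* on day 7 lay below every day 1 heart.

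The synthases differed in time course. *Has1* (ENSMUSG00000003665, chr17:17843323-17855205, minus strand, GRCm38) rose on day 1 and fell by day 7. Sham hearts 1 to 4 had 0.574, 1.36, 0.146 and 0.0478 CPM, which rest on 11, 33, 3 and 1 counts. Day 1 AMI hearts had 2.91, 2.39, 1.83 and 1.23 CPM, from 39 to 80 counts. Day 7 AMI hearts had 0.586, 1.24, 0.701 and 0.714 CPM, from 19 to 32 counts. Sham heart 2 lay above the lowest day 1 heart, and the highest day 7 heart lay just above the lowest day 1 heart, so groups overlapped in each comparison.

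For *Has1* the log2 FC was 1.92 (SE 0.572, adjusted p = 0.0154) for day 1 AMI against sham and 3.04 without sham heart 2. By limma on log2(TPM + 1) it was 0.96, under the FC limit. On day 7 against day 1 it was -1.37 (SE 0.534, adjusted p = 0.0479), and this call was lost in 7 of 12 fits that each left out 1 heart, with log2 FCs from -1.64 to -1.18 and adjusted p from 0.0141 to 0.123. With library totals alone it was -1.24 (adjusted p = 0.0766) and was not called. Day 7 AMI and sham hearts were not separated for *Has1* (0.55, SE 0.605, adjusted p = 0.451), although without sham heart 2 the log2 FC was 1.67 and passed both limits (adjusted p = 0.0267).

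*Has2* (ENSMUSG00000022367, chr15:56665627-56694539, minus strand), the synthase needed for heart cushion formation in the embryo, was higher on both days. Its levels were 1.41, 1.56, 0.631 and 0.239 CPM in sham hearts, from 5 to 38 counts. They were 2.75, 2.72, 2.29 and 1.42 CPM on day 1 and 2.84, 2.4, 1.81 and 2.38 CPM on day 7. Every day 7 heart lay above every sham heart, whereas day 1 heart 4 lay under sham heart 2. The log2 FC against sham was 1.24 (SE 0.394, adjusted p = 0.0212) on day 1 and 1.28 (SE 0.395, adjusted p = 0.0118) on day 7, with 0.04 (SE 0.358, adjusted p = 0.933) between the AMI groups. Without sham heart 4 the values against sham were 0.92 and 0.96, under an FC of 2. The day 1 call was also lost without sham heart 3, day 1 heart 1 or day 1 heart 2, at adjusted p of 0.0609, 0.0543 and 0.0552.

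*Has3* (ENSMUSG00000031910) showed no such rise with TMM. Its range was 2.82 to 3.15 CPM in sham hearts, 2.18 to 3.99 on day 1 and 2.99 to 4.87 on day 7, with groups that overlapped. The log2 FC was -0.01 (SE 0.206) on day 1 and 0.39 (SE 0.204) on day 7 against sham, and neither passed the test (adjusted p = 0.972 and 0.111). In TPM, however, every day 7 heart, at 1.08 or more, lay above every sham heart, at 0.75 or less. Over the 8 other settings the day 7 log2 FC against sham ran from 0.37 to 0.83, so its size depended on scaling and measure. Of its exon bases, 5.52% lie opposite exons of *Chtf8*, and the strand counted is not given in the sources used here.

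In TPM, the 3 synthases together came to 1.25 ± 0.531 (SD, n = 4) in sham hearts, 3.15 ± 0.547 on day 1 and 2.91 ± 0.368 on day 7. *Has3* made up 60.1% ± 25.3 of that sum in sham hearts, 27.4% ± 12.1 on day 1 and 43.4% ± 6.21 on day 7. The share of *Has1* was 20.4% ± 17.8, 48.2% ± 9.62 and 23.8% ± 5.21 in the same order, and that of *Has2* was 19.4% ± 9.31, 24.4% ± 2.84 and 32.8% ± 7.56. On day 1 *Has1* was thus the largest share on average, and the other groups were led by *Has3*. All 3 transcripts were rare, with TPM from 0.03 to 2.12 for *Has1*. These shares were not tested.

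**Figure D2:**
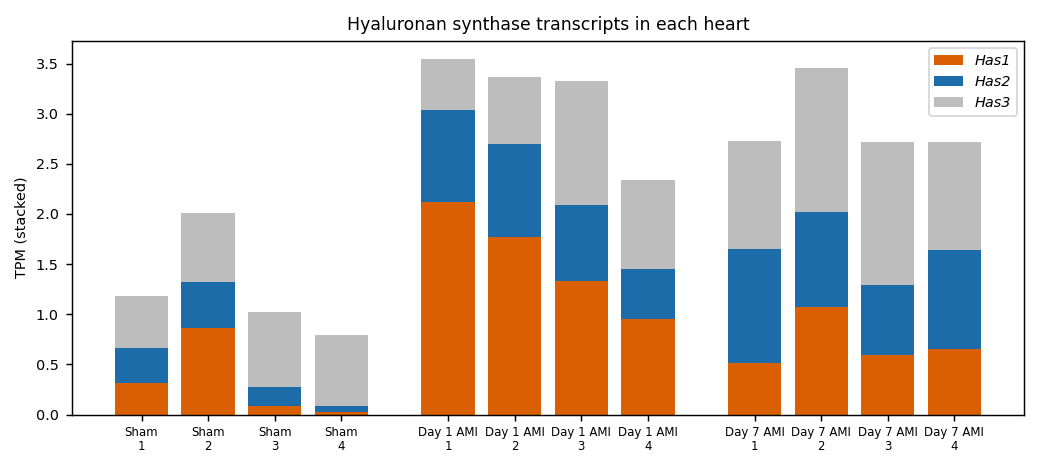
Stacked TPM of *Has1*, *Has2* and *Has3* in each of the 12 hearts (linear axis from 0; replicate numbers only name hearts). The summed TPM was 0.79 to 2.01 in sham hearts, 2.34 to 3.55 on day 1 and 2.72 to 3.46 on day 7, and *Has1* took 39.9% to 59.7% of it on day 1.

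Neither hyaluronidase was called in any comparison. *Hyal2* (ENSMUSG00000010047, chr9:107567945-107572779, plus strand) encodes a hyaluronidase anchored to the cell surface. It stood at 25.8, 30.6, 26.5 and 25.3 CPM in sham hearts, 34.0, 41.8, 36.8 and 30.1 on day 1, and 31.0, 27.4, 29.8 and 28.5 on day 7. Day 1 heart 4 fell just under sham heart 2, and the other day 1 hearts lay above all sham hearts. The log2 FC on day 1 was 0.40 (SE 0.102, adjusted p = 0.00639), which passed the FDR limit at an FC of 1.32. On day 7 against day 1 it was -0.29 (SE 0.101, adjusted p = 0.0288) with TMM and 0.01 on the log2(TPM + 1) scale. Day 7 AMI against sham gave 0.11 (SE 0.102, adjusted p = 0.375) with TMM, 0.50 (adjusted p = 0.00177) with library totals alone, and 0.80 (adjusted p = 7.3e-05) by limma on log2(TPM + 1), which gave 0.79 (adjusted p = 0.000257) for day 1. In TPM every AMI heart, at 32.8 or more, lay above every sham heart, at 25.5 or less. Sham heart 2 was the highest sham heart in CPM (30.6), and sham heart 3 was the highest in TPM (25.5). The size of the *Hyal2* difference thus depended on scaling and on whether CPM or TPM was used, and the reason was not tested.

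*Hyal1* (ENSMUSG00000010051, chr9:107576927-107581710, plus strand), the lysosomal hyaluronidase, ranged from 4.90 to 7.64 CPM in sham hearts, 4.74 to 6.40 on day 1 and 6.38 to 7.24 on day 7. Log2 FCs were -0.06 (SE 0.157) and 0.18 (SE 0.156) against sham on day 1 and day 7, with adjusted p of 0.791 and 0.35. The sign of the day 1 value turned with library totals (0.20) and on the log2(TPM + 1) scale (0.26). The day 7 value against sham ran from 0.15 to 0.69 over the 8 other settings. In TPM every day 7 heart, at 4.05 or more, lay above every sham heart, at 3.81 or less, so this difference too depended on scaling and measure. *Hyal1* counts are uncertain, since 50.8% of its exon bases are shared with *Naa80* on the same strand and 4.21% with *Hyal3*. The gene starts 4147 bases beyond the end of *Hyal2*. In TPM, *Hyal2* exceeded *Hyal1* by 8.21 ± 2.36 times in sham hearts, 11.4 ± 3.06 on day 1 and 8.74 ± 1.34 on day 7.

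The receptors went different ways. *Cd44* (ENSMUSG00000005087, chr2:102811141-102901665, minus strand) encodes the main hyaluronan receptor of leukocytes and many activated stromal cells, and it rose on both days. Sham hearts had 14.8, 10.4, 10.4 and 7.79 CPM, day 1 AMI hearts 56.4, 70.3, 49.0 and 34.9, and day 7 AMI hearts 49.0, 41.3, 27.0 and 42.8. No AMI heart came as low as any sham heart, while the AMI groups overlapped each other. *Cd44* was 4.87-fold higher on day 1 (log2 FC 2.28, SE 0.237, adjusted p = 2.05e-05) and 3.7-fold higher on day 7 (1.89, SE 0.236, adjusted p = 1.11e-05) than in sham hearts. Between day 7 and day 1 the log2 FC was -0.40 (SE 0.219, adjusted p = 0.154). Gene counts do not tell the splice forms of CD44 apart.

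Leukocyte markers, like *Cd44*, were higher than in sham hearts on both days. All 6 were called higher than sham on both days, and none was called between day 1 and day 7. In that interval, however, *Ptprc* (0.68, adjusted p = 0.00885) and *Laptm5* (0.65, adjusted p = 0.0154) passed the FDR limit with higher values on day 7. The other markers had log2 FCs from -0.37 to 0.06 and did not pass it. Their summed CPM was 44.8 to 70.9 in sham hearts, 148 to 215 on day 1 and 159 to 268 on day 7, with no marker at 0 in a group. The 6 monocyte and macrophage markers summed to 143 to 227, 243 to 338 and 341 to 561 CPM, with 3 called higher on day 1 and 5 on day 7. The part of these cells in the *Cd44* values was not tested.

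*Lyve1* (ENSMUSG00000030787, chr7:110850607-110863239, minus strand) was lowest on day 7. Its levels were 24.6, 23.5, 14.3 and 15.1 CPM in sham hearts, 21.6, 27.5, 19.1 and 19.4 on day 1 and 10.8, 12.3, 14.8 and 11.6 on day 7. Every day 7 heart lay below every day 1 heart, and day 7 heart 3 lay within the sham range. The log2 FC from day 1 to day 7 was -0.82 (SE 0.181, adjusted p = 0.00207), which passed the FDR limit at an FC of 0.565 and so missed the call. On the log2(TPM + 1) scale it was -0.45 with an adjusted p of 0.0932 by limma. Day 1 AMI and sham hearts differed by 0.18 (SE 0.18, adjusted p = 0.451).

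Against sham the day 7 value of *Lyve1* depended on scaling and measure. It was -0.64 (SE 0.183, adjusted p = 0.0074) with TMM, -0.24 (adjusted p = 0.248) with library totals alone, and -0.06 (adjusted p = 0.791) by limma on log2(TPM + 1). The ratio of *Cd44* to *Lyve1* within a library does not depend on the scaling between libraries. In TPM it was 0.346 ± 0.0605 in sham hearts, 1.58 ± 0.233 on day 1 and 2.02 ± 0.719 on day 7, with every AMI heart, at 0.966 or more, above every sham heart, at 0.422 or less.

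Markers of the cells that carry LYVE-1 did not move as one. The 4 resident macrophage markers were called in no comparison, and they summed to 55.1 to 84.6 CPM in sham hearts, 69.3 to 97.3 on day 1 and 70.5 to 83.5 on day 7. Within that sum, *Cd163*, a scavenger receptor of macrophages, passed the FDR limit with lower values on day 7 than on day 1 (-0.64, adjusted p = 0.0208) and than in sham hearts (-0.69, adjusted p = 0.0112). *Mrc1*, the mannose receptor, passed it with higher values than in sham hearts on day 1 (0.71, adjusted p = 0.00244) and day 7 (0.65, adjusted p = 0.00253). Of the lymphatic endothelial list, 5 of 6 markers could be matched to 1 identifier, and they summed to 139 to 177, 131 to 150 and 124 to 129 CPM. *Pdpn*, a membrane glycoprotein that fibroblasts also carry, was called higher on day 1 (log2 FC 2.83, SE 0.186, adjusted p = 9.42e-07) and on day 7 (1.65) than in sham hearts. *Prox1*, a transcription factor on this list, had a log2 FC of -0.70 (adjusted p = 0.000819) on day 1 and -0.81 (adjusted p = 9.72e-05) on day 7, under the FC limit. Whether its RNA came from lymphatic endothelium alone was not tested. In CPM, which does not allow for transcript length, *Prox1* was the largest part of the lymphatic sum, with means of 106, 65.4 and 60.4 in the 3 groups. In mean TPM, *Prox1* had 15.3, 11.9 and 13.3 and *Pdpn* had 3.06, 27.9 and 14.2, so *Pdpn* was ahead on day 1 and day 7. Against sham on day 1 and day 7, *Flt4* went the other way, with 0.32 (adjusted p = 0.0338) and 0.65 (adjusted p = 0.000211). *Mmrn1* had -0.70 and -0.12, and *Reln* had -0.87 and -0.58. The cells behind these values were not told apart. From day 1 to day 7, the interval in which *Lyve1* was lower, *Prox1* had -0.11, *Flt4* 0.32, *Mmrn1* 0.59 and *Reln* 0.29, while *Pdpn* was called lower (-1.18, SE 0.167, adjusted p = 7.36e-05). No matched marker was at 0 in a group, and the part of either cell type in the *Lyve1* values was not tested.

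Among the matrix proteins, *Vcan* (ENSMUSG00000021614, chr13:89655312-89742509, minus strand), which encodes the large proteoglycan versican, was higher on day 1 and highest on day 7. It stood at 24.4, 21.5, 17.6 and 10.4 CPM in sham hearts, 46.7, 72.6, 39.1 and 42.3 on day 1, and 97.0, 95.6, 73.6 and 85.1 on day 7. The 3 groups did not overlap, although day 1 heart 2, at 72.6, came within reach of day 7 heart 3, at 73.6. *Vcan* was 2.72-fold higher on day 1 (log2 FC 1.44, SE 0.233, adjusted p = 0.000316) and 4.76-fold higher on day 7 (2.25, SE 0.237, adjusted p = 2.43e-06) than in sham hearts. Between the AMI groups the value was 0.81 (SE 0.223, adjusted p = 0.00874), under the FC limit, and 1.04 without day 1 heart 2, which passed both limits. Splice forms of versican were not told apart.

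As a sum, fibroblast markers rose mainly by day 7. Their summed CPM was 686 to 881 in sham hearts, 794 to 1010 on day 1 and 3840 to 8120 on day 7, with 2 of 6 called higher on day 1 and 4 of 6 on day 7 against sham, and no marker at 0 in a group. On day 7 most of the sum came from *Col1a1*, a collagen chain, with a mean of 135, 360 and 2890 CPM in the 3 groups, and *Postn*, which encodes periostin of activated fibroblasts, with 25.8, 87.5 and 1640 CPM. The markers did not move as one. *Dcn* was lower on day 1 than in sham hearts (log2 FC -0.72, adjusted p = 0.000682) and had 0.36 (adjusted p = 0.0269) on day 7. Against sham on day 1 and day 7, *Pdgfra* had 0.53 and 0.61, *Lum* had 0.29 and 2.26, and *Tcf21* had -0.02 and 1.45. The part of fibroblasts in the *Vcan* values was not tested.

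*Tnfaip6* (ENSMUSG00000053475, chr2:52038009-52056686, plus strand) encodes TSG-6, a secreted protein induced by inflammatory cytokines. Sham hearts had 2.09, 2.18, 0.534 and 0.478 CPM, from 40, 53, 11 and 10 counts. Day 1 AMI hearts had 3.29, 3.31, 2.13 and 1.39 CPM, and day 7 AMI hearts had 3.73, 3.13, 2.77 and 3.03 CPM. Day 1 hearts overlapped the sham hearts, and day 7 hearts did not. Against sham the log2 FC was 0.93 (SE 0.421, adjusted p = 0.0914) on day 1, which was not called, and 1.25 (SE 0.419, adjusted p = 0.0186) on day 7, which was. The day 7 call was lost without sham heart 3 (adjusted p = 0.0534) or sham heart 4 (adjusted p = 0.0505). On day 1, *Tnfaip6* passed both limits without sham heart 2 (log2 FC 1.30) or day 1 heart 4 (1.13), and with library totals (1.20).

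*Hapln1* (ENSMUSG00000021613, chr13:89539796-89611652, plus strand), the link protein that locks proteoglycans onto hyaluronan, lay at the edge of detection. It had 8 to 15 counts in sham hearts, 3 to 32 on day 1 and 10 to 15 on day 7, or 0.383 to 0.782, 0.0946 to 0.955 and 0.369 to 0.541 CPM. Log2 FCs were -0.16 (SE 0.525) on day 1 and -0.28 (SE 0.533) on day 7 against sham, with adjusted p of 0.828 and 0.672, and a change was not detectable at this depth. *Hapln1* and *Vcan* are neighbours on chromosome 13, with 43659 bases between their ends. Their levels differed widely, with a *Vcan* to *Hapln1* TPM ratio of 37.3 ± 8.19 in sham hearts, 209 ± 203 on day 1 and 170 ± 24.7 on day 7; the day 1 ratios ran from 66.5 to 502, with *Hapln1* on few counts.

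**Figure D3:**
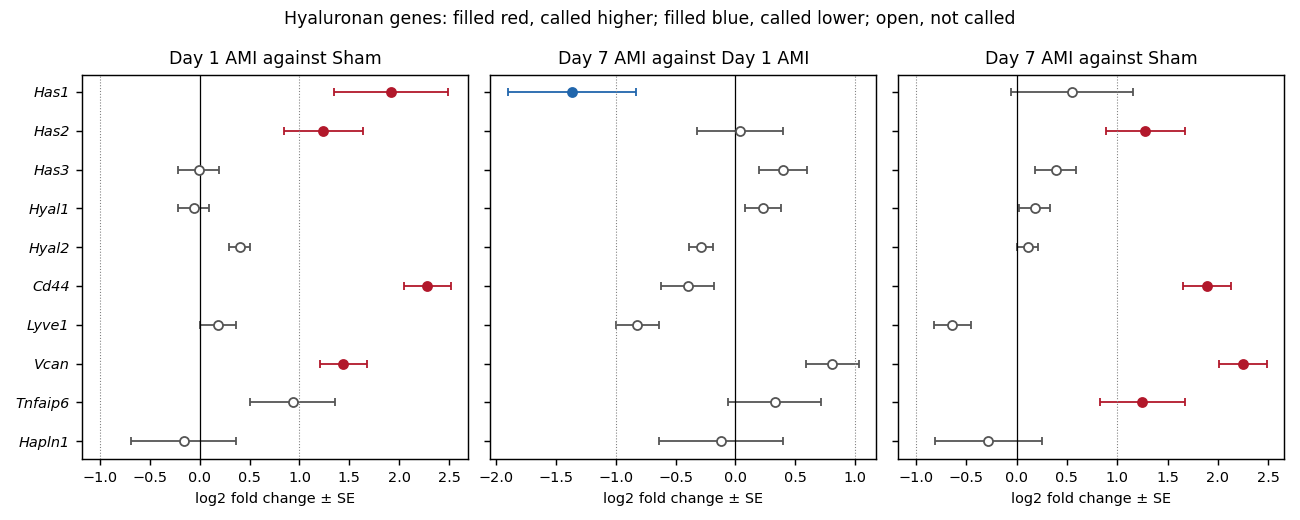
Log2 FC ± SE of the 10 genes in the 3 comparisons (edgeR, 12 libraries in 1 fit, 4 hearts per group); filled points are called, open points are not, and dotted lines mark an FC of 2. *Cd44* (2.28) and *Has1* (1.92) were farthest to the right on day 1, an order that turned without sham heart 2 (2.26 and 3.04), *Vcan* (2.25) and *Cd44* (1.89) on day 7, and *Has1* (-1.37) was the only gene called from day 1 to day 7.

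Ordered by mean TPM in sham hearts, *Hyal2* led with 22 ± 3.45 (SD, n = 4), followed by *Lyve1* with 9.46 ± 3.18. *Vcan* (3.76 ± 1.14), *Cd44* (3.16 ± 0.757) and *Hyal1* (2.81 ± 0.764) came next, with ranges that overlapped each other but neither *Lyve1* nor *Tnfaip6*. *Tnfaip6* (0.99 ± 0.711), *Has3* (0.665 ± 0.1), *Has1* (0.322 ± 0.378) and *Has2* (0.262 ± 0.177) followed, and *Hapln1* (0.103 ± 0.033) was last; among these 5, neighbours in the order overlapped. On day 7, *Hyal2* (38.9 ± 4.04) still led, with *Vcan* (21.3 ± 2.3) and *Cd44* (16.9 ± 4.75) ahead of *Lyve1* (8.75 ± 1.73), and *Cd44* overlapped both of its neighbours.

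The 4 sham hearts differed among themselves. *Has1*, *Has2*, *Tnfaip6*, *Lyve1*, *Vcan* and *Hapln1* were each higher in sham hearts 1 and 2 than in sham hearts 3 and 4. The share of all tested genes split in this way was not counted, so the split is not given as a trait of these genes. Neutrophil markers were split in the same hearts, with a summed CPM of 30.4 and 55.2 in sham hearts 1 and 2 and of 2.91 and 2.39 in sham hearts 3 and 4. The split was not particular to neutrophils. By smaller margins, the leukocyte, monocyte and macrophage, resident macrophage, fibroblast, epicardial and erythroid sums were split likewise. Resident macrophage markers summed to 84.6 and 76.1 CPM against 57.8 and 55.1, and leukocyte markers to 64.2 and 70.9 against 49.1 and 44.8. Endothelial, atrial and cardiomyocyte sums were not split so. On day 1 the neutrophil sum was 37.8 to 132, with 2 of 6 markers called higher than sham, and on day 7 it was 7.5 to 38, with 1 called higher and 1 lower. The erythroid sum was 4450 CPM in sham heart 2 against 491 to 1180 in the other sham hearts, and the epicardial and mesothelial sum was 24.9 in that heart against 10.4 to 15.0. Atrial muscle markers summed to 368 CPM in sham heart 4, the heart with the lowest *Has1*, *Has2* and *Tnfaip6*, against 55.7 to 139 in the other sham hearts. The part of these cells in the values of the 6 genes was not tested.

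*Has2* and *Tnfaip6* were nearest to each other in profile, although *Vcan* and *Cd44* had still closer genes, given below. Likeness was measured over the 12 hearts as the root mean square difference of log2 CPM after each gene was centred on its own mean, among 13433 genes with a mean of at least 1 CPM. Between *Has2* and *Tnfaip6* this difference was 0.288, and each was the nearest gene of the other. The next for *Has2* were *Fam167a* (0.381) and *Sgms2* (0.383). The next for *Tnfaip6* were *Itih4* (0.315), which encodes a member of the inter-alpha-inhibitor heavy chain family, and *Fam167a* (0.359). When each heart was left out in turn, a check added after seeing the data, *Tnfaip6* stayed first for *Has2* in 11 of 12 fits and ranked 8 without sham heart 4, and *Has2* stayed first for *Tnfaip6* in 10 of 12. On the log2(TPM + 0.1) scale, also added then, *Tnfaip6* ranked 3 for *Has2*, and *Has2* ranked 1 for *Tnfaip6*. All these points share the split among sham hearts described above.

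**Figure D4:**
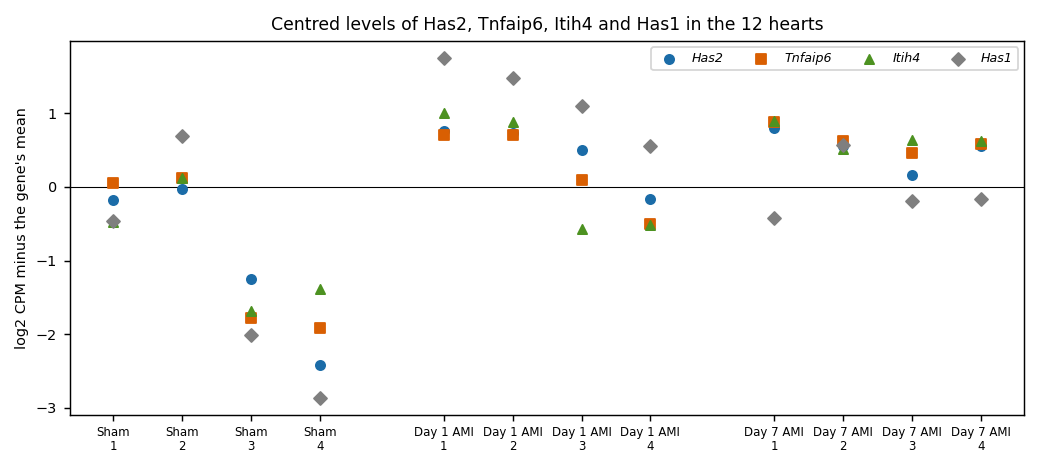
Log2 CPM of *Has2*, *Tnfaip6*, *Itih4* and *Has1* minus each gene's mean over the 12 hearts, 1 point per heart and gene (replicate numbers only name hearts). All 4 genes were lowest in sham hearts 3 and 4, and *Has1* stood apart from the others on day 1, where it was higher, and in 3 of 4 day 7 hearts, where it was lower.

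The nearest genes of *Has1* were farther off, with *Socs3* at 0.48, *Cd24a* at 0.512 and *Krt8* at 0.516. *Cd44* was nearest to *Clec5a* (0.257), a receptor of myeloid cells, *AI506816* (0.259) and *Capg* (0.269), an actin-capping protein of macrophages. *Vcan* was nearest to *Dclk1* (0.153), *Sh3pxd2b* (0.197) and *Dbn1* (0.243). These distances are descriptions over 12 hearts that fall into 3 groups, and genes with a similar rise share much of a short distance.

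The promoters of 4 called genes are shown because these genes differed in the days on which they were called higher than sham. *Has1* was called on day 1, *Tnfaip6* on day 7, and *Cd44* and *Vcan* on both days. *Tnfaip6* was not separated between day 7 and day 1 (log2 FC 0.33, adjusted p = 0.513), so its calls do not show a difference in timing. The *Has1* call between day 7 and day 1 was lost in 7 of 12 fits that each left out 1 heart. Without sham heart 2, *Has1* was also called on day 7 against sham (1.67). Of the 10 genes, 7 had an entry in the RefSeq promoter table of GRCm38.p6, and *Has2* is among those without one. Each line gives 140 bases that end next to the outermost annotated start, 5′ to 3′ on the strand of the gene. Motifs were searched on both strands, and capitals mark a match, which is a description and not a site of binding.
*Has1* (chr17:17855206-17855345, minus strand): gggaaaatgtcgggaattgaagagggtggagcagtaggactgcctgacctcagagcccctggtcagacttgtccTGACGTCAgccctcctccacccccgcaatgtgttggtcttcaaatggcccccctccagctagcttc
*Tnfaip6* (chr2:52037869-52038008, plus strand): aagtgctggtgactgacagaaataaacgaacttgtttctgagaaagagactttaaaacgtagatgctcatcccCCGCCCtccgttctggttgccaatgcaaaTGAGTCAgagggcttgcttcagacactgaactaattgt
*Cd44* (chr2:102901666-102901805, minus strand): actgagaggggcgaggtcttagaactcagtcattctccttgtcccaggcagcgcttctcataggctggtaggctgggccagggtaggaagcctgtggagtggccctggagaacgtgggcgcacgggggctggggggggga
*Vcan* (chr13:89742513-89742652, minus strand): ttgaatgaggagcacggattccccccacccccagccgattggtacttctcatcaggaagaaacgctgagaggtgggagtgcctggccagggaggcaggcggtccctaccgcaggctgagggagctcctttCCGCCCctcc

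*Has1* held TGACGTCA, the letters of a cyclic AMP response element, which 1.33% of 32851 promoters of the same length held. *Tnfaip6* held TGAGTCA, a form of the AP-1 motif TGANTCA, which 3.99% held. *Tnfaip6* and *Vcan* also held the GC box GGGCGG on the other strand, as 28% of promoters did on either strand. The letters TATAAA (7.21% of promoters) and the NF-kB consensus (2.18%) were in none of these 4 windows, and no motif searched was in that of *Cd44*. The motifs do not overlap in letters, and a match or its absence says nothing of the factors in these hearts.

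The wider pathway was described with 45 further genes, and 33 of them had enough counts to be tested. On day 1, 8 of the 33 were called higher and 2 lower than in sham hearts, with a median log2 FC of 0.47. From day 1 to day 7, 7 were called higher and 2 lower, with a median of 0.19. On day 7, 13 were called higher and 1 lower than in sham hearts, with a median of 0.70. The shares of all tested genes given above for each comparison and direction are the background of these counts.

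Enzymes that supply the sugar nucleotides for hyaluronan mostly stayed under the FC limit. Of 7 tested, *Pgm3*, an enzyme of UDP-N-acetylglucosamine synthesis, was called higher on day 1 (log2 FC 1.01, SE 0.158, adjusted p = 0.000253), and it fell under an FC of 2 without sham heart 1 (0.95), sham heart 3 (0.96) or day 1 heart 2 (0.97). None of the 7 was called in the other comparisons. *Ugdh*, which makes UDP-glucuronic acid, had 0.72 (adjusted p = 0.00251) on day 1 and 0.70 (adjusted p = 0.00146) on day 7 against sham.

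Among the other breakdown enzymes, 5 of 10 could be tested, and none was called before day 7. *Cemip*, which encodes a hyaluronan-depolymerizing protein, had 0 to 5 counts in sham hearts and 6 to 23 on day 1. On day 7 the hearts had 135, 23.5, 9.63 and 11.2 CPM, and even the lowest was far above the highest day 1 heart, at 0.879. Its log2 FC on day 7 against day 1 was 6.72 (SE 0.938, adjusted p = 6.39e-05), and it was 5.11 without day 7 heart 1. *Gusb*, the lysosomal beta-glucuronidase, was called higher on day 7 than in sham hearts (1.22, SE 0.143, adjusted p = 6.16e-06), after 0.78 (adjusted p = 0.000758) on day 1, when every AMI heart already lay above every sham heart. *Tmem2*, a cell surface hyaluronidase, stayed under the FC limit with 0.47 (adjusted p = 0.0222) on day 1 and 0.72 (adjusted p = 0.000907) on day 7 against sham.

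All 4 other receptors were tested. *Hmmr*, a hyaluronan-binding protein also known from the mitotic spindle, was called higher on day 7 than on day 1 (log2 FC 3.57, SE 0.437, adjusted p = 2.2e-05), from 0.688 to 0.985 CPM on day 1 to 6.75 to 11.3 on day 7. *Layn*, which encodes layilin, was called higher than in sham hearts on day 1 (1.17, SE 0.175, adjusted p = 0.000192) and on day 7 (1.64). *Stab2*, the scavenger receptor of sinusoidal endothelium, was rare and was called lower on day 1 (-1.76, SE 0.416, adjusted p = 0.00406) and on day 7 (-1.62). *Stab1* had 0.97 (adjusted p = 4.8e-05) on day 7, just under the FC limit.

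Of 16 other binding and cross-linking proteins, 10 could be tested. *Ptx3*, a pentraxin that helps to cross-link hyaluronan with TSG-6 and inter-alpha-inhibitor, had 1.04, 1.31, 0.825 and 0.908 CPM in sham hearts, 6.58, 11.2, 5.23 and 6.46 on day 1, and 3.45, 2.43, 2.88 and 3.16 on day 7. No group overlapped another. It was called in all 3 comparisons, with log2 FCs of 2.84 (SE 0.255, adjusted p = 8.16e-06) on day 1 against sham, -1.30 (SE 0.224, adjusted p = 0.000331) from day 1 to day 7, and 1.53 on day 7 against sham. On the log2(TPM + 1) scale the fall from day 1 to day 7 was -0.73, under the FC limit.

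*Acan*, which encodes the cartilage proteoglycan aggrecan, rose from 0 to 11 counts in sham hearts and 21 to 30 on day 1 to 113 to 630 on day 7. Its log2 FC from day 1 to day 7 was 3.52 (SE 0.491, adjusted p = 6.27e-05). The day 1 call against sham (2.29, adjusted p = 0.0256) was lost without sham heart 1, 3 or 4 or day 1 heart 2, at adjusted p of 0.0689, 0.0651, 0.0692 and 0.0532, and the value was 3.92 without sham heart 2 and 0.24 by limma on log2(TPM + 1). *Itih5* and *Itih2*, of the inter-alpha-inhibitor heavy chain family, had 2.69 (SE 0.159, adjusted p = 3.97e-08) and 2.15 (SE 0.366, adjusted p = 0.000311) from day 1 to day 7. *Itih4* had 1.07 (adjusted p = 0.0515) on day 1, which was not called, and 1.37 (adjusted p = 0.0107) on day 7 against sham. *Susd5* was called higher on day 1 (1.26), *Hapln3* lower on day 1 (-1.13, adjusted p = 0.0472), and *Habp2* lower on day 7 than on day 1 (-1.02). The *Hapln3* call was lost in 8 of 12 fits that left out 1 heart, and the *Habp2* value fell under an FC of 2 without day 1 heart 3 (-0.97), day 7 heart 2 (-0.95) or day 7 heart 4 (-0.96).

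Proteases that cleave versican made up the last group, with 7 tested. *Adamts4* had 1.41, 3.53, 0.485 and 0.0956 CPM in sham hearts, 24.9, 45.6, 14.6 and 8.86 on day 1, and 28.0, 9.43, 5.94 and 16.2 on day 7, and every AMI heart lay above every sham heart. Against sham its log2 FC was 4.03 (SE 0.725, adjusted p = 0.000665) on day 1 and 3.38 (SE 0.723, adjusted p = 0.00104) on day 7. *Adamts8* had 2.29 (SE 0.335, adjusted p = 0.000161) and 2.47 in the same order. *Adamts1* was called on day 1 (1.20, SE 0.259, adjusted p = 0.00231) and had 0.87 without day 1 heart 2. *Adamts5* had -0.70 (adjusted p = 0.000246) on day 1 against sham and 0.74 (adjusted p = 8.78e-05) from day 1 to day 7, both under the FC limit. *Adamts20* was called higher on day 7 than on day 1 (1.21, SE 0.269, adjusted p = 0.00223). The antisense gene *Has2os*, whose exons cover 4.3% of the exon bases of *Has2*, had 1 to 11 counts per library and was not tested.

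**Figure D5:**
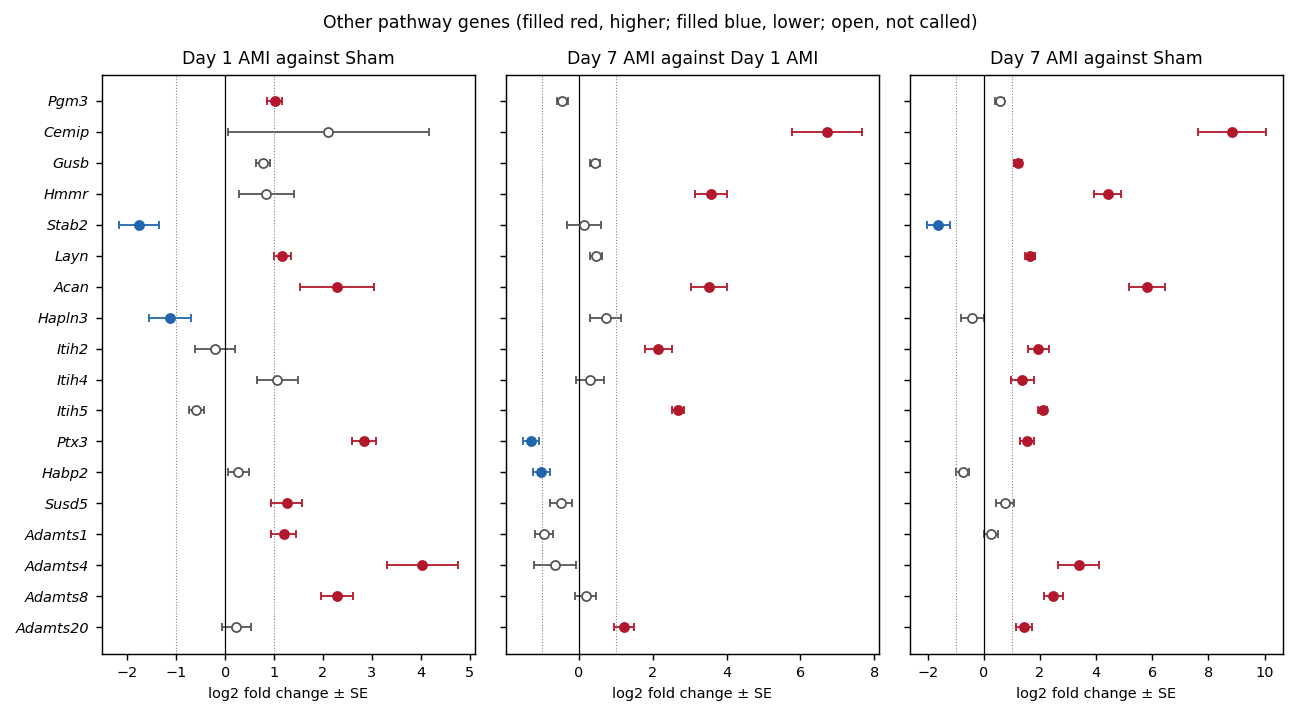
Log2 FC ± SE of the other pathway genes named here that were called in at least 1 of the 3 comparisons (edgeR, 4 hearts per group); filled red points are called higher, filled blue points are called lower, open points are not called, and dotted lines mark an FC of 2. The axes differ between panels: *Adamts4* (4.03) was farthest to the right on day 1, and *Cemip* (6.72) from day 1 to day 7.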

How the data were processed

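Groups came from the labels (Sham, Day 1 post AMI, Day 7 post AMI; 4 hearts each), and separate hearts are taken as separate mice. The authors trimmed paired-end reads with Cutadapt and aligned them to GRCm38 with STAR 2.4.0j. The authors deposited raw counts per gene, without normalization, and TPM from RSEM; the counting tool and strand are not given in the sources used here. Counts were fitted with edgeR 4.0.16 in R 4.3.3 (TMM, filterByExpr by group, quasi-likelihood test, 1 fit of 12 libraries, Benjamini-Hochberg over 15306 genes). The SE is that implied by the F statistic, and log2 CPM used a prior count of 2. No library repeated another, with a chi-square per degree of freedom of at least 8.84 within groups. The floor of 3 counts covers counting error only, while SDs and SEs include the spread between hearts.

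Members, gene lists and motifs were chosen with earlier results of these data known. Every member is described, and of the other genes those called in any comparison are named, with a few others under the FC limit named after their values were seen and 1 called gene not reported here; for each called member the 3 genes with the nearest profile are named. Cemip2 stands in the table as *Tmem2*. Alternatives were DESeq2 1.42.0, limma 3.58.1 on log2(TPM + 1) and log2(TPM + 0.1) for genes with at least 1 TPM in 4 libraries, RLE size factors, library totals, no filter, only the groups compared, a replicate block, and each heart left out. Fits were tested on simulated data. Gene positions and exon overlaps are from GENCODE M21, and promoter sequences are from RefSeq. Figures used matplotlib 3.10.9 in Python 3.11.15.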

Additional observations from a re-analysis of the deposited data

How the results depend on the processing

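The 3 counts of called genes were 4, 1 and 4 for day 1 AMI against sham, day 7 against day 1 and day 7 AMI against sham. Leaving out each heart in turn gave 3 to 5, 0 to 1 and 2 to 5, the 2 without sham heart 4, where *Has2* and *Tnfaip6* lost the call. limma on log2(TPM + 1) called 2 in the first comparison, where *Has1* had 0.96 and *Has2* and *Hapln1* did not pass the filter on TPM. It called 0 in the second, as did limma on log2(TPM + 0.1) and edgeR with library totals alone, with *Has1* at -0.56, -1.02 and -1.24. *Cd44* and *Vcan* kept their calls against sham in all 8 other settings and all 12 fits without a heart. The sign of small values turned as follows, and the cause was not tested. On day 1 against sham, *Has3* had 0.12, 0.23, 0.26 and 0.01 (limma with pseudocounts of 1 and 0.1, library totals, no filter), *Hyal1* had 0.26, 0.33 and 0.20 (the first 3 of these), and *Hapln1* had 0.11 (library totals). From day 1 to day 7, *Hyal2* had 0.01 by both limma fits and *Hapln1* had 0.01 (library totals), and on day 7 against sham *Hapln1* had 0.12 (library totals). Without 1 heart, *Has3* ran from -0.18 to 0.11, *Hyal1* from -0.14 to 0.08 and *Hapln1* from -0.80 to 0.18 on day 1 against sham, and *Has2* from -0.14 to 0.15 and *Hapln1* from -0.46 to 0.52 from day 1 to day 7. The replicate numbers did not pair the hearts: deviations of same-numbered hearts correlated from -0.24 to 0.23, and 3, 1 and 1 of 8 hearts correlated best with their own number. With the replicate block the counts were 5, 1 and 4, the gain being *Tnfaip6* on day 1 (1.02), and *Hapln1* had 0.07 from day 1 to day 7. *Tnfaip6* on day 1 was also called by limma on log2(TPM + 0.1) (1.37), as was *Has1* on day 7 against sham (1.31). For the 33 other pathway genes the counts of 10, 9 and 14 ran from 6 to 12, 5 to 9 and 14 to 19 over these settings. Genes under about 1 CPM, such as *Has1* in sham hearts and *Hapln1*, rest on few counts, and the depth limits what can be said of them.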
